A study of Mus musculus with 8 samples.

Results

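The genes described here encode transcription factors of 5 families that specify lineages mostly outside the cerebral cortex. They are the Nkx genes named with a number, a hyphen and a number, Pax1 to Pax9 without Pax6, the 6 Irx genes, the Tbx genes named with a number, and Gata1 to Gata6. The rule found 47 genes among 21887 protein-coding genes of chromosomes 1 to 19, X and Y in RefSeq GRCm38.p6, namely 14 Nkx, 8 Pax, 6 Irx, 13 Tbx and 6 Gata genes. No measured value entered the choice. ATAC-seq, an assay that uses the transposase Tn5 to cut accessible DNA, was run on cultured primary cortical neurons of E16.5 mouse embryos. The conditions were cKO KCl, cKO basal, WT KCl and WT basal, with 2 libraries and 1 deposited list of nucleosome-free peaks each. The cKO neurons carried BAF53bCre and Brg1F/F, so that Cre under a gene expressed in neurons removes Brg1, which powers BAF complexes as they move nucleosomes. Cells of the culture that do not express this Cre keep the gene. The WT neurons were labelled Brg1 WT, with no word on Cre. KCl neurons received 50 mM KCl for 1 h on day 6 in vitro, after TTX (1 µM) and APV (100 µM) on day 5, which block sodium channels and NMDA receptors. The labels give this pretreatment for depolarisation and do not say whether basal cultures had it. Embryo age and culture were shared by all groups.

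The list lengths were 25690 peaks in cKO KCl, 20484 in cKO basal, 20229 in WT KCl and 34061 in WT basal. With 1 list per condition there was no spread between replicates and no test of a condition, and every interval below covers counting error only. The peak caller's fold and p-value together give the number of fragments at each summit, a median of 30 to 33 per list with a lowest value of 20 to 22, so a missing peak can be a site just under the threshold. Of 12 cortical neuron markers, each list had a peak within 1 kb of a gene end for 6, with 4 of the markers in all 4 lists and 8 in any. Over all protein-coding genes such a peak was found for 38.8% to 46.5% per list. It was found in all 4 lists for 29.04% and in any for 56.9%, so the cortical marker counts were near the shares of all genes. Of 5 microglia markers 0 had such a peak in any list, and of 4 astrocyte markers 3 did in WT basal and 0 in the other lists. Inhibitory neuron markers had 3 of 6 in cKO KCl and 1 or 2 in the others, oligodendrocyte lineage markers 2 of 4 in every list, and vascular markers 2 of 4 in cKO KCl and 1 in the others. A site open in fewer cells and a site less open in each cell cannot be told apart in these bulk libraries. The part of other cell types in the results below was not tested.

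The families differ in the domain that binds DNA. Nkx and Irx proteins bind DNA through a homeodomain, Pax proteins through a paired domain, Tbx proteins through a T-box, and Gata proteins through zinc fingers that read the GATA sequence. They set up organs such as heart, thyroid, kidney, limb and blood, or ventral and posterior parts of the nervous system. In cells of other lineages, many genes of this kind have CpG-rich promoters held by Polycomb repressors, which BAF complexes are known to oppose.

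Most promoter windows of these genes were CpG-rich, 23 of 39, yet few carried a peak. RefSeq promoter windows of GRCm38.p6, from 250 bases before to 50 after a transcript start, matched 33 of the 47 genes with 39 entries. Genes with no entry used include Pax3, Tbx15, Tbx3, Tbx5, Pax4, Nkx6-3, Irx5, Irx6, Tbx2, Irx1, Gata4, Nkx2-6 and Gata6. The windows below were chosen to show the range, and capitals mark CpG dinucleotides. The first is the window with a peak in more lists than any other of these genes, the second the densest in CpG, the third a CpG-rich window with no peak, and the last 1 of 3 windows of the only one of the 47 genes with no open region in any list.
Irx2: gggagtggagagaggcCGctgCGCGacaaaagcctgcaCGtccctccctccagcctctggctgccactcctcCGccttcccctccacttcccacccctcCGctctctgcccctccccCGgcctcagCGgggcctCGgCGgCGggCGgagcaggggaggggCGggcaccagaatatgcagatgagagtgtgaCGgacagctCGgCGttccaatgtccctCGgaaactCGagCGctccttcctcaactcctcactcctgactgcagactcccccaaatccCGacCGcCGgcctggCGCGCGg
Nkx6-1: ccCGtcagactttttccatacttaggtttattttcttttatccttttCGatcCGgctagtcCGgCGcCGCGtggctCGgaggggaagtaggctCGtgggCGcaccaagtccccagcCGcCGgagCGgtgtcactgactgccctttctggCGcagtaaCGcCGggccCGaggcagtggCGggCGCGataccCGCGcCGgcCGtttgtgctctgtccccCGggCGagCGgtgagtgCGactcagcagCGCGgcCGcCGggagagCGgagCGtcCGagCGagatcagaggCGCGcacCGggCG
Gata2: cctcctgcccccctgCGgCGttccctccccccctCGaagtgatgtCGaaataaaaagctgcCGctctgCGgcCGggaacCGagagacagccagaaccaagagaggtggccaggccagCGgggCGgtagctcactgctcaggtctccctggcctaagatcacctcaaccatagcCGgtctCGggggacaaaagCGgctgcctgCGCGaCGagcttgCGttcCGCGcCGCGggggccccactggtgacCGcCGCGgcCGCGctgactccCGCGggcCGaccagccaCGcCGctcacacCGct
Tbx22: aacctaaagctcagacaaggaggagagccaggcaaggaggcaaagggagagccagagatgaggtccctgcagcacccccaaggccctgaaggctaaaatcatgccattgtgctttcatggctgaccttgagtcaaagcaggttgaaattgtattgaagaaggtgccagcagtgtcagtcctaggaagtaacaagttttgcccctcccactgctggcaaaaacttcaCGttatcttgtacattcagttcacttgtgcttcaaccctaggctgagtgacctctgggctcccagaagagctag

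The Irx2 window (chr13:72628570-72628869, plus strand) held 25 CpG and began inside the annotated gene body. It overlapped a peak with a fold over local background of 3.39 in cKO KCl, 2.40 in cKO basal and 3.16 in WT basal, while the WT KCl list had no peak there. The Nkx6-1 window (chr5:101664662-101664961, minus strand) held 40 CpG and overlapped a peak in cKO KCl alone, with a fold of 2.77. The Gata2 window (chr6:88193641-88193940, plus strand) held 32 CpG and no peak in any list, and the Tbx22 window (chrX:107667714-107668013, plus strand) held 1 CpG. All folds are the authors' values and rank peaks within their own list.

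A window was called CpG-rich when G and C made up at least 50% of it and CpG reached 0.6 of the number its base composition gives. By this rule 23 of the 39 windows (58.97%), of 20 genes, were CpG-rich, against 45.15% of 21263 windows of all protein-coding genes. A peak overlapped 5 of the 23 in cKO KCl (21.7%, exact 95% interval 7.46 to 43.7), against 71.5% of the 9600 CpG-rich windows of all genes. In cKO basal it was 1 of 23 (4.35%, 0.110 to 21.95), against 61.0% of all. In WT KCl it was 0 of 23 (exact interval up to 14.8%, with 3 windows making 13.0%), against 64.2% of all. In WT basal it was 1 of 23 (4.35%, 0.110 to 21.95), against 70.3% of all. The interval lay below the share of all CpG-rich windows in each of the 4 lists. The peaks in CpG-rich windows were those of Irx2, named above, and of Nkx3-2 (fold 2.41), Nkx6-1, Pax1 (2.59) and Tbx20 (2.72) in cKO KCl. Among the other 16 windows, which were not CpG-rich, a peak overlapped an internal Tbx4 start in cKO KCl (2.62) and the starts of Nkx2-3 (2.64) and Pax2 (2.77) in WT basal. These made 6.25% in cKO KCl (0.158 to 30.2) and 12.5% in WT basal (1.55 to 38.4), against 12.7% and 13.2% of all windows that were not CpG-rich. In cKO basal and WT KCl it was 0 (interval up to 20.6% in each), against 9.17% and 9.50%. In these windows the interval covered the share of all in each list.

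The shortfall was also present within 1 kb on either side of the start. Of the 23 CpG-rich windows, 9 then had a peak in cKO KCl (39.1%), 2 in cKO basal (8.70%), 3 in WT KCl (13.0%) and 5 in WT basal (21.7%), against 78.4%, 68.75%, 71.4% and 78.05% of all CpG-rich windows in the same lists. Hox cluster genes, whose products set position along the body, had 24 windows, of which 11 were CpG-rich. Over all 24, a peak lay within 1 kb for 20.8% in cKO KCl, 16.7% in cKO basal, 20.8% in WT KCl and 29.2% in WT basal. Over all 39 windows of the lineage genes it did for 30.8%, 7.69%, 12.8% and 20.5% in the same order, and over all windows for 46.1%, 39.3%, 40.4% and 46.5%. A peak overlapped the Hox window itself for 2 in cKO KCl, 0 in cKO basal, 1 in WT KCl and 3 in WT basal. Several genes have more than 1 window, and windows of 1 gene are not separate observations.

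**Figure D1:**
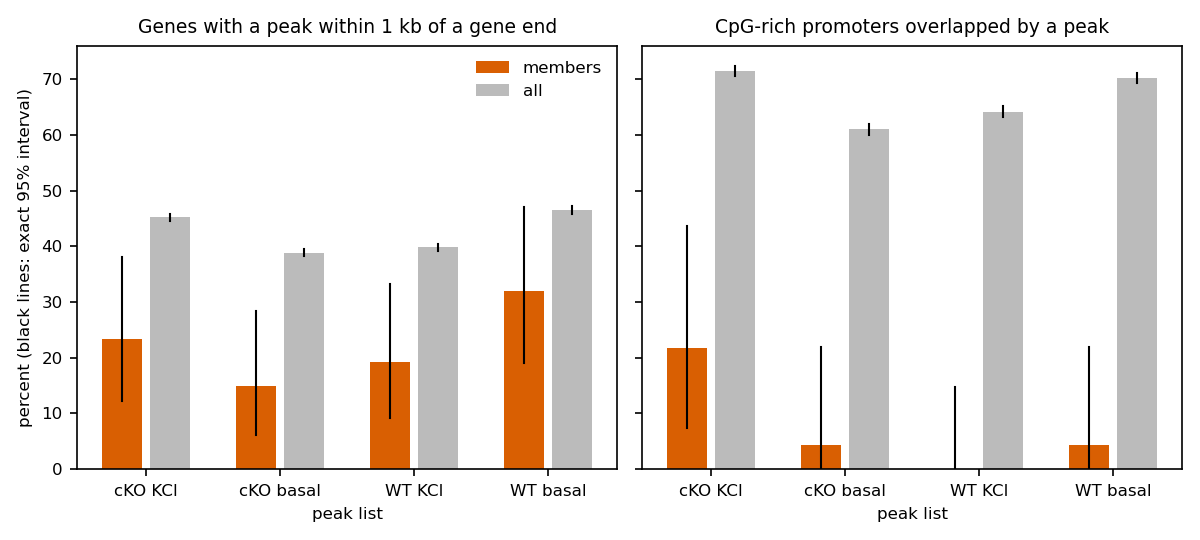
Percent of genes with a peak within 1 kb of a gene end (left) and percent of CpG-rich promoter windows overlapped by a peak (right) in each list, for the 47 lineage genes (orange) and all protein-coding genes (grey), with exact 95% intervals as black lines. On the right the lineage genes reach 21.7% in cKO KCl and 0 in WT KCl, while all genes range between 61.0% and 71.5%.

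Letters of binding sites were searched in the 39 windows on both strands as a description. The GC box GGGCGG, bound by Sp and Klf factors, stood in 69.2% of them, against 46.2% of all 21263 windows. Among CpG-rich windows alone it stood in 78.3% of those of the lineage genes, against 76.8% of all. The AP-1 letters TGANTCA stood in 2.56% against 6.99% of all windows, the GATA letters AGATAA in 12.8% against 9.65%, and the NK2-type letters TNAAGTG in 12.8% against 10.8%. The T-box letters AGGTGTGA were in 0 of the 39 windows and in 1.15% of all.

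At gene ends both annotated ends of all 47 genes could be used. A peak lay within 1 kb of an end of 11 of the 47 in cKO KCl (23.4%, 12.3 to 38.0), 7 in cKO basal (14.9%, 6.20 to 28.3), 9 in WT KCl (19.1%, 9.15 to 33.3) and 15 in WT basal (31.9%, 19.1 to 47.1). Among all 21887 genes it did for 45.2% in cKO KCl, 38.8% in cKO basal, 39.8% in WT KCl and 46.5% in WT basal. The interval covered the share of all genes in WT basal and lay below it in the other 3 lists. With each list cut to the same 20229 peaks, WT basal had 8 of 47 (17.0%, 7.65 to 30.8), against 39.9% of all genes, and cKO KCl had 6 (12.8%, 4.83 to 25.7), against 42.0%, so the interval then lay below the share of all genes in every list. The gap was wider for presence in all 4 lists, met by 1 of 47 (2.13%) against 29.04% of all genes, than for presence in any list, met by 23 (48.9%) against 56.9%. Of these 23, 10 had a gene-end peak in 1 list, 8 in 2, 4 in 3 and 1 in 4. At the 39 Hox cluster genes found, counts were 8 in cKO KCl, 5 in cKO basal, 8 in WT KCl and 12 in WT basal, with 0 in all 4.

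The 45 peaks at these gene ends rested on 22 to 44 fragments at the summit. None (0) was among the 10% of its list with the highest fold. Their median fold was 2.73 in cKO KCl, 2.90 in cKO basal, 2.82 in WT KCl and 2.72 in WT basal. Gene-end peaks of each whole list had medians of 3.53, 3.21, 3.36 and 3.30 in the same order. Where RefSeq gave a transcript start, 22 of the 45 lay at the start and 8 at the 3′ end. For the other 15 the start was not known from the tables used.

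**Figure D2:**
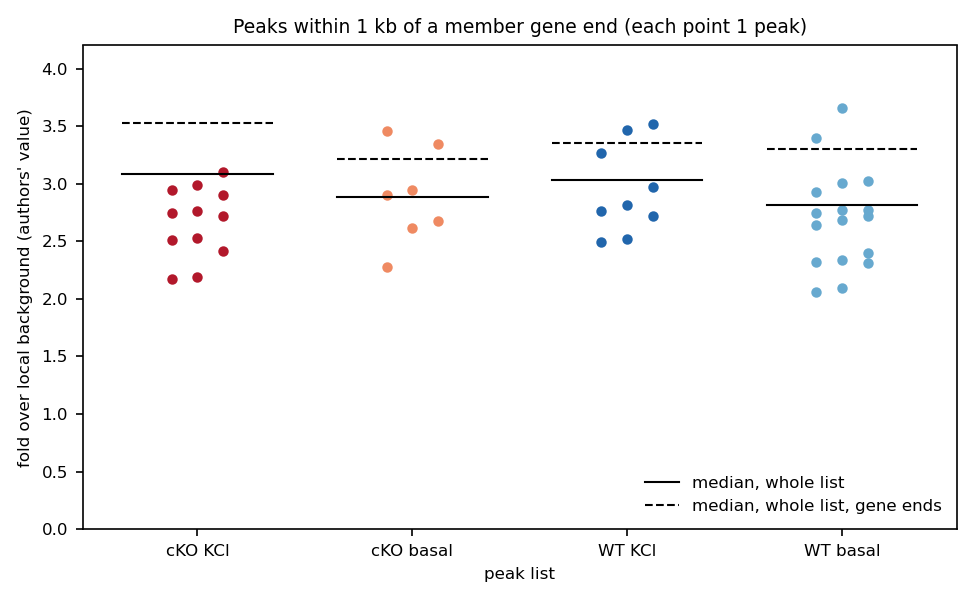
Fold over local background of each peak within 1 kb of an end of the lineage genes, by list, with the median of the whole list (solid line) and of all its gene-end peaks (dashed line). The medians of the points are 2.73 in cKO KCl, 2.90 in cKO basal, 2.82 in WT KCl and 2.72 in WT basal, all under the dashed line of their list.

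Among the Nkx genes, 10 of 14 had a gene-end peak in some list, against 56.9% of all genes. Nkx2-2, which patterns the ventral neural tube and acts in oligodendrocytes and pancreas, was the 1 gene with such a peak in all 4 lists, but not at 1 site. At the upstream end of its gene body, chr2:147194541-147194939, folds were 2.90 in cKO KCl, 3.27 in WT KCl and 2.93 in WT basal. The cKO basal peak (2.67) lay at the 3′ end. The RefSeq promoter start of Nkx2-2 is at position 147186402, inside the gene and away from both sites. The upstream site also lies in Nkx2-2os, a noncoding gene of the locus.

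Nkx2-1 marks progenitors of cortical interneurons in the ventral forebrain and also acts in thyroid and lung. Its 1 gene-end peak was in cKO KCl (fold 2.51, 29 fragments), 972 bp from the start. Nkx6-1, a gene of motor neuron progenitors and pancreatic beta cells, had peaks near its start in cKO KCl (2.77) and in WT KCl (2.97), which did not overlap each other. Nkx3-2, which acts in the axial skeleton, had a 3′ end peak in cKO basal (2.62) and WT basal (2.77) and a start peak in cKO KCl (2.41).

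Of the other Nkx genes named here, those with a gene-end peak had it in 1 or 2 lists. Nkx2-3, a gene of spleen and gut, had a peak 614 bp beyond its 3′ end in WT KCl (2.82) and 1 at its start in WT basal (2.64). Nkx6-2 had a peak in cKO KCl alone (2.17), Nkx2-4 in WT KCl alone (3.47), and Nkx2-6 (2.72) and Nkx2-9 (3.65) in WT basal alone. The heart gene Nkx2-5, Nkx1-1, Nkx1-2 and the stomach gene Nkx6-3 had no gene-end peak.

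Region counts give the wider neighbourhood. A region here is a set of overlapping peaks of the 4 lists, counted for a gene when a peak lay within 50 kb of its body. Nkx2-2 had 2 regions in cKO KCl, 3 in cKO basal, 2 in WT KCl and 4 in WT basal. Nkx1-2, of the tail-bud progenitors, had 1, 2, 1 and 5 in the same order, and Nkx2-5 had 2, 3, 0 and 4. Nkx2-1 had 3, 0, 2 and 2, with all 7 of its regions in 1 list each. Nkx6-2 had 3, 4, 2 and 4, of which 1 region was in all 4 lists, inside another gene 33789 bp away. Nkx2-6 had 0, 2, 1 and 4. Nkx6-3 had 3, 2, 1 and 4, Nkx3-2 had 1, 1, 0 and 4, and Nkx2-3 had 0, 0, 3 and 3. Nkx2-4 had 1 region in all, in WT KCl.

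Of the 8 Pax genes 2 had a gene-end peak in some list, against 56.9% of all genes. Pax8, a gene of thyroid and kidney, had 1 near its start (chr2:24474828-24475449) with a fold of 3.34 in cKO basal, 2.49 in WT KCl and 3.40 in WT basal and none in cKO KCl. The peak rested on 34 fragments in cKO basal, 22 in WT KCl and 34 in WT basal. Pax2, a gene of the midbrain-hindbrain boundary and kidney, had start peaks in WT KCl (2.52) and WT basal (2.77) that did not overlap.

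Pax5, which commits cells to the B lineage, had 15 regions over all lists, the highest number among the 47 genes, with 5 in cKO KCl, 4 in cKO basal, 3 in WT KCl and 9 in WT basal. It is also the longest of them at 185947 bp, and per 100 kb of gene and flanks it had 5.25 regions over all lists, against 5.74 for Pax2. Of its regions 10 lay inside the gene, among them chr4:44694341-44694686 with a fold of 2.78 in cKO KCl, 4.01 in cKO basal and 4.18 in WT basal. The 1 region of Pax5 in all 4 lists lay at an end of Zcchc7, 45800 bp away. Pax2 had 2, 0, 2 and 7 regions in cKO KCl, cKO basal, WT KCl and WT basal, and each of its 11 regions was in 1 list. Pax7, a gene of muscle satellite cells, had 3, 3, 1 and 3, again each in 1 list. Pax9, which acts in sclerotome and teeth, had 3, 0, 1 and 2, and the neural crest gene Pax3 had 1, 0, 3 and 2.

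The Irx genes form 2 clusters, with Irx3, Irx5 and Irx6 on chromosome 8 and Irx1, Irx2 and Irx4 on chromosome 13. On chromosome 8, 3 of 3 genes had a gene-end peak in some list, and on chromosome 13, 1 of 3 did, against 56.9% of all genes. Irx5 had 1 in cKO basal (2.28) at its lower end and 1 in WT basal (2.34) at its upper end. Irx6 had 1 in cKO KCl (2.53) and 2 in WT basal (2.40 and 2.31), Irx3 1 in WT KCl (2.76) and 1 in WT basal (2.32), and Irx1 1 in cKO basal (2.90). None of these peaks overlapped another. A site 1341 bp from Irx5, chr8:92355775-92356455, was the 1 region between genes that had a peak in all 4 lists, with folds of 3.76 in cKO KCl, 3.02 in cKO basal, 4.07 in WT KCl and 3.31 in WT basal. Irx2, whose gene ends had no peak, had 2 regions in each cKO list and 4 in each WT list. Irx6 had 2 in cKO KCl, 2 in cKO basal, 0 in WT KCl and 4 in WT basal.

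Of the 13 Tbx genes 7 had a gene-end peak in some list, against 56.9% of all genes. Tbx3, which acts in limb, heart and mammary development, had 1 at its lower end (chr5:119670501-119670867) with a fold of 3.46 in cKO basal and 3.03 in WT basal, and another in WT KCl (2.72). Tbx21, which encodes the T helper cell factor T-bet, had 1 near its start with a fold of 2.75 in cKO KCl and 3.00 in WT basal. Tbx20, a heart gene, had a start peak in cKO KCl alone (2.72). Tbx4, a hindlimb gene, had a peak at the upstream end of its gene body in cKO KCl alone (3.10). The RefSeq promoter start of Tbx4 lies inside the gene, away from that peak. Tbx5, of forelimb and heart, had peaks at both ends in WT basal (2.06 and 2.75), and Tbx10 had peaks that also touch Nudt8 in cKO KCl (2.19) and WT basal (2.09).

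Tbx18, a gene of heart and ureter development, had a site open in every list. At chr9:87729393-87730330, inside the gene, the fold was 2.99 in cKO KCl, 3.25 in cKO basal, 2.60 in WT KCl and 2.72 in WT basal. The cKO KCl peak reached within 1 kb of the start and the other 3 did not. A separate peak in cKO KCl alone, chr9:87730425-87730797, lay 463 bp from the start with a fold of 2.94. Tbx5 had a further site in all 4 lists, chr5:119866952-119867236 inside the gene, at 3.21, 3.15, 3.20 and 2.53 in the same order.

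Regions within 50 kb of Tbx5 numbered 2 in cKO KCl, 2 in cKO basal, 1 in WT KCl and 7 in WT basal. Tbx10 had 6, 2, 1 and 6 in that order and Tbx6, of presomitic mesoderm, 4, 5, 3 and 6, in windows that hold 9 and 7 other protein-coding genes, against a median of 1 for the 47. Tbx21 had 3, 1, 2 and 6, and Tbx15 had 4, 0, 0 and 1. Tbx1, a pharyngeal arch gene, had 0, 0, 1 and 3, and Tbx19, of pituitary corticotrophs, 1, 0, 2 and 4. Tbx2 and Tbx4 share 5 regions. Tbx2 (2 in cKO KCl, 3 in cKO basal, 1 in WT KCl and 0 in WT basal), Tbx4 (3, 3, 1 and 2) and Tbx20 (1, 2, 0 and 1) had more in each cKO list than in the WT list of the same treatment. The share of all genes with that pattern was not counted. All 3 cKO basal regions of Tbx2 are shared with Tbx4. With −log10 q of at least 3, the difference of cKO basal from WT basal at Tbx2 was 0. The palate gene Tbx22 on the X chromosome had 0 regions in every list.

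None of the 6 Gata genes had a gene-end peak in any list (0 of 6), against 56.9% of all genes with 1 in some list. With families this small, differences between them were not tested. Gata1, of red blood cells, had 2 regions in cKO KCl, 4 in cKO basal, 2 in WT KCl and 6 in WT basal, and its 1 region in all 4 lists lay at an end of Hdac6, 11084 bp away. Gata3, a T cell factor, had 2, 1, 2 and 6 in the same order. It held a site in all 4 lists inside the gene, chr2:9879518-9879826, with folds of 2.90 in cKO KCl, 2.86 in cKO basal, 2.87 in WT KCl and 3.05 in WT basal. Gata4, of heart and endoderm, had 5, 2, 4 and 5 regions. The highest fold of the cKO basal peaks near the 47 genes stood 20560 bp from it, inside another gene (chr14:63177635-63178354), at 4.81 in cKO KCl, 5.74 in cKO basal, 4.77 in WT KCl and 4.91 in WT basal. Gata6 had 1, 4, 0 and 5, Gata2 0, 1, 1 and 1, and Gata5 0, 1, 1 and 0.

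**Figure D3:**
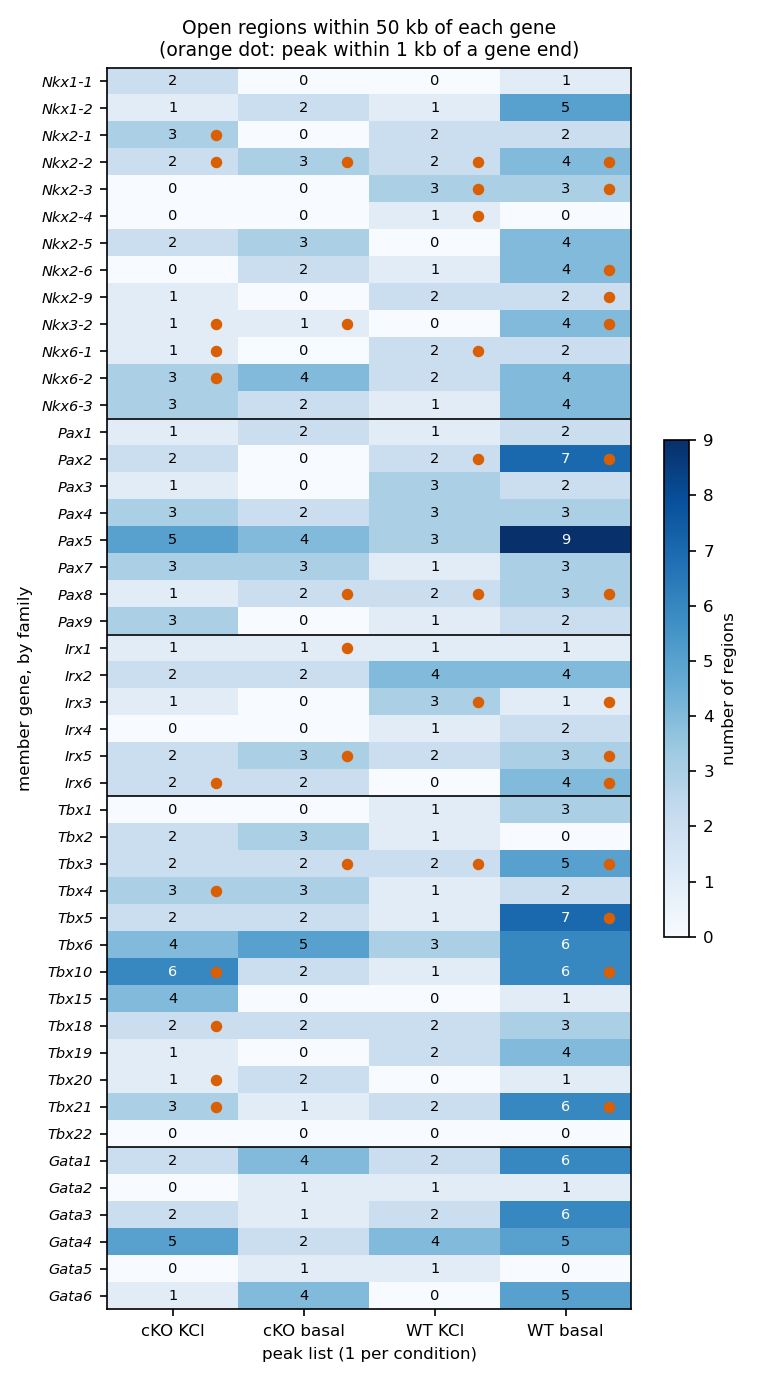
Number of open regions within 50 kb of 46 of the 47 genes (rows, by family) in each list (columns), with an orange dot where a peak lay within 1 kb of a gene end. Counts run between 0 and 9, Pax5 in WT basal being the highest, Nkx2-2 has a dot in every column, and no Gata gene has a dot.

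Counted over all 47 genes with shared regions taken once, there were 283 regions. Of these 231 (81.6%) had a peak in 1 list and 15 (5.30%) in all 4, against 71.4% and 11.6% of all 62023 regions of the series. Away from gene ends, 193 of 219 (88.1%) were in 1 list, against 82.5% of all such regions. Gene ends of any gene took 22.6% of the regions near these genes and 22.8% of all regions. Of 35 regions at an end of a lineage gene 1 was in all 4 lists (2.86%, 0.0723 to 14.9). That region, at Tbx18, had only its cKO KCl peak within 1 kb of the end. Of 29 regions at an end of another gene 8 were in all 4 lists (27.6%, 12.7 to 47.2). Among all gene-end regions of the series the share was 38.5%. The intervals of the 35 and the 29 overlap, and their difference was not tested. Those 8 lay at ends of Tbkbp1, Ndufv1, Zcchc7, Snd1, Ppp4c, Oat, Gpat4 and Hdac6. For 33 of the 47 genes no region was in all 4 lists, and the share of all genes without such a region was not counted.

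**Figure D4:**
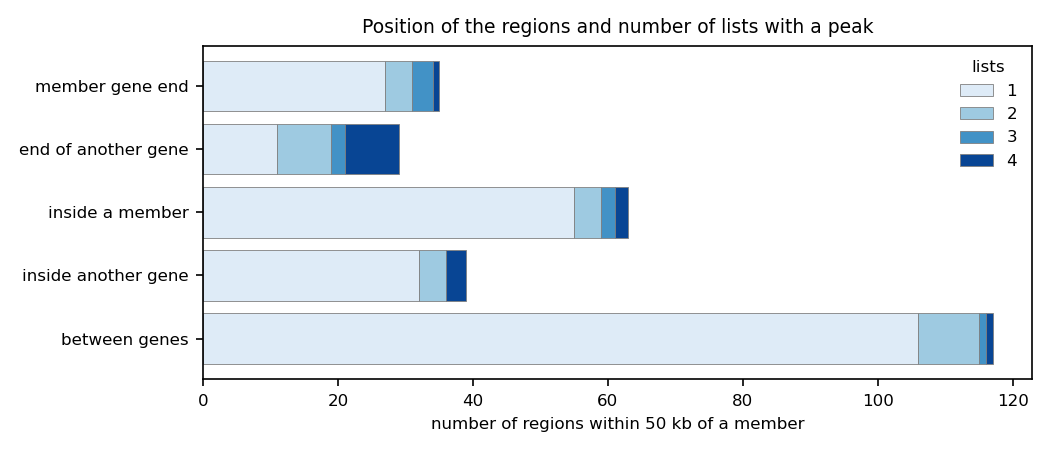
Number of regions within 50 kb of the 47 genes by position, with shading for the number of lists that have a peak there. The darkest part, regions in all 4 lists, is 8 of 29 at ends of other genes and 1 of 35 at ends of the lineage genes. In that 1 region, at Tbx18, only the cKO KCl peak lay within 1 kb of the end.

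The comparison of cKO basal with WT basal addresses Brg1 loss in neurons not given KCl. There were 70 regions near the lineage genes in cKO basal, against 151 in WT basal, and 32 were in both lists. Fewer regions in cKO basal were found for 35 of the 47 genes (74.5%), against 57.3% of all genes, and more for 4 (8.51%), against 11.4%. Of all genes, 2825 had no region in any list, while only 1 of the 47 had none. Such genes can have neither fewer nor more, which lowers the shares of all genes here and in the comparisons below. The gap between 74.5% and 57.3% is therefore widened by the choice of denominator. Shares among genes with a region were not counted. The 4 with more were Tbx2 (3 in cKO basal, 0 in WT basal), Tbx4 (3 and 2), Tbx20 (2 and 1) and Gata5 (1 and 0). The widest gaps were at Pax2 (0 in cKO basal, 7 in WT basal), Pax5 (4 and 9), Tbx5 (2 and 7), Tbx21 (1 and 6) and Gata3 (1 and 6). Of the 157 regions in 1 of these 2 lists, 38 were in cKO basal (24.2%, 17.7 to 31.7), against 29.3% over all regions of the series, which lies inside that interval.

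List length went with this difference. Lists cut to equal length have nearly equal numbers of unmatched regions over the genome by design. Such a cut therefore cannot tell list length from a genome-wide change. When each list was cut to its 20229 peaks of highest −log10 p, 45 regions were in cKO basal alone and 46 in WT basal alone (49.5%, 38.8 to 60.1). Over all regions the share was 49.6%. Genes with fewer regions in cKO basal were then 13, against 29.8% of all genes, and those with more 14, against 29.1%. At that length Tbx5 had 2 regions in cKO basal and 1 in WT basal, and Pax2 0 and 3.

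For cKO KCl against WT KCl, the same question in depolarised neurons, the longer list was that of cKO. There were 83 regions in cKO KCl, against 69 in WT KCl, with 22 in both. In cKO KCl, 20 genes had more regions (42.6%), against 42.0% of all genes, and 15 had fewer (31.9%), against 20.2%. Tbx10 (6 in cKO KCl, 1 in WT KCl) and Tbx15 (4 and 0) had the widest gaps, and Nkx2-3 (0 and 3) the widest in the other direction. Of 108 regions in 1 of the 2 lists 61 were in cKO KCl (56.5%, 46.6 to 66.0), against 60.8% over all regions. At equal length 42 were in cKO KCl alone and 50 in WT KCl alone (45.7%, 35.2 to 56.4), against 50.2% over all regions. At that length 15 genes had more regions in cKO KCl, against 29.4% of all genes, and 18 had fewer, against 29.2%, so the balance of the counts turned.

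Depolarisation of WT neurons was examined with WT KCl against WT basal, which shares its lists with the comparisons above. There were 69 regions in WT KCl, against 151 in WT basal, with 23 in both. Fewer regions in WT KCl were found for 33 genes (70.2%), against 57.1% of all, and more for 5 (10.6%), against 11.3%. The 5 were Nkx2-4 (1 in WT KCl, 0 in WT basal), Pax3 (3 and 2), Irx3 (3 and 1), Tbx2 (1 and 0) and Gata5 (1 and 0). The 57.1% and 11.3% are lowered by the 2825 genes with no region in any list, which they include. Pax5 (3 in WT KCl, 9 in WT basal) and Tbx5 (1 and 7) had the widest gaps. Of 174 regions in 1 of the 2 lists 46 were in WT KCl (26.4%, 20.1 to 33.6), against 29.0% over all regions. At equal length 52 were in WT KCl alone and 53 in WT basal alone (49.5%, 39.6 to 59.5), against 49.6% over all regions. Genes with fewer regions in WT KCl were then 18, against 29.0% of all genes, and those with more 19, against 30.1%.

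In the cKO genotype the depolarised list was the longer one. For cKO KCl against cKO basal there were 83 regions in cKO KCl, against 70 in cKO basal, with 18 in both. In cKO KCl, 17 genes had more regions (36.2%), against 42.2% of all, and 16 had fewer (34.0%), against 20.1%. Tbx10 (6 in cKO KCl, 2 in cKO basal) and Tbx15 (4 and 0) led the genes with more, and Gata6 (1 and 4) those with fewer. Of 117 regions in 1 of the 2 lists 65 were in cKO KCl (55.6%, 46.1 to 64.7), against 60.3% over all regions. At equal length 44 were in cKO KCl alone and 52 in cKO basal alone (45.8%, 35.6 to 56.3), against 50.25% over all regions. At that length 13 genes had more regions in cKO KCl, against 30.0% of all genes, and 21 had fewer, against 28.4%, so here too the balance turned.

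**Figure D5:**
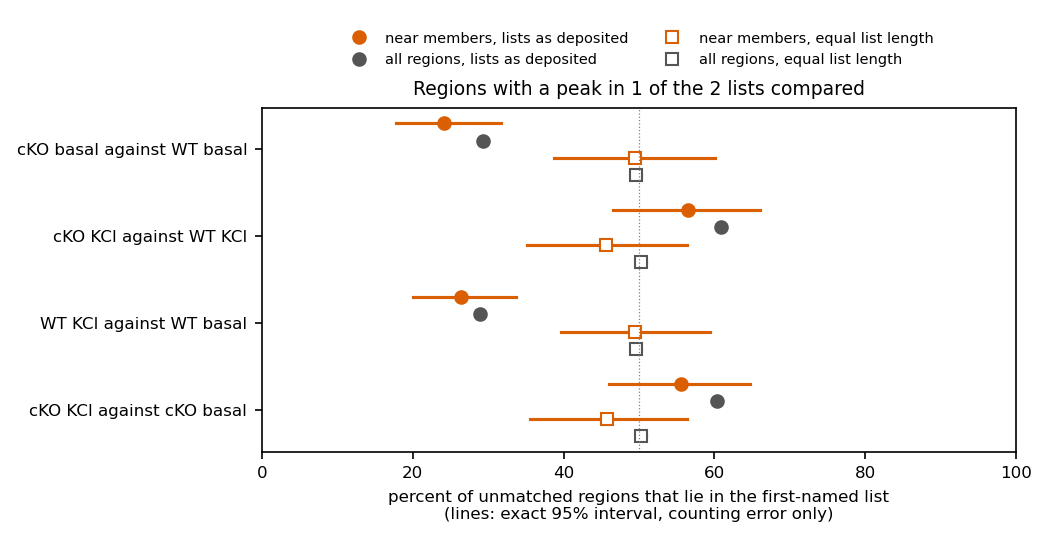
For each comparison, the percent of regions with a peak in 1 of the 2 lists that lie in the first-named list, near the 47 genes (orange) and over all regions (grey), for the lists as deposited (filled circles) and at equal list length (open squares), with exact 95% intervals. The deposited lists give 24.2% to 56.5% near these genes, and at equal length the values lie between 45.7% and 49.5%.

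Over the 4 lists, 104 of the 283 regions (36.7%) were in WT basal alone, against 29.15% of all regions. Another 48 were in cKO KCl alone (16.96%, against 16.97%), 38 in cKO basal alone (13.4%, against 12.7%) and 41 in WT KCl alone (14.5%, against 12.5%). In both WT lists alone there were 3 (1.06%, against 1.86% of all regions), near Tbx18, Tbx6 and Gata3, and in both cKO lists alone 0. In both KCl lists alone there were 5 (1.77%, against 1.35%), near Tbx19, Gata1, Irx2, Gata4 and Pax4, with folds of 2.31 to 3.63 in cKO KCl and 2.45 to 2.88 in WT KCl. In both basal lists alone there were 11 (3.89%, against 1.96%), among them the Tbx3 and Nkx3-2 ends named above. In cKO KCl and WT basal alone, which share neither genotype nor treatment, there were 10 (3.53%, against 3.855%).

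Related and partner genes give a comparison at gene ends, with no test of the difference. Of 14 relatives and partners (Pax6, Tbr1, Eomes, Mga, Zfpm1, Zfpm2, Lmo2, Tal1, Ldb1, Tle1 to Tle4 and Paxip1), gene ends carried peaks for 9 in cKO KCl, 9 in cKO basal, 7 in WT KCl and 7 in WT basal, and 5 in all 4 lists. Pax6, Tbr1 and Eomes act in the cortex itself, Zfpm, Lmo2, Tal1 and Ldb1 proteins work with Gata factors, and Tle proteins are corepressors. Of 19 genes that encode Polycomb proteins or their opposing demethylases, gene ends carried peaks for 16 in cKO KCl, 14 in cKO basal, 13 in WT KCl and 16 in WT basal, and 12 in all 4 lists. Over all protein-coding genes the share with a gene-end peak was 45.2%, 38.8%, 39.8% and 46.5% in the same order, and 29.04% in all 4 lists. Within 50 kb, 11 of the 19 had fewer regions in cKO basal than in WT basal and 2 had more. Of the 14 relatives and partners 8 had fewer and 3 more. Of all genes, 57.3% had fewer and 11.4% had more, with genes that had no region in any list included.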

How the data were processed

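Nucleosome-free ATAC-seq peaks of 8 libraries in 4 conditions were analysed, as 1 deposited narrowPeak list per condition. Per the submitters' processing notes, Bowtie2, MACS2 and the builds GRCm38 and mm10, names of the same assembly, were used. Versions, settings, duplicate removal, the Tn5 offset and the pooling of libraries were not given in the sources used here. Each deposited peak has a score, a fold over local background (a ratio), the −log10 p-value and −log10 q-value, and the summit's distance from the start. The labels state 60 M reads per library, made with 7 to 9 PCR cycles from 50000 cells.

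Per list, 5 mitochondrial peaks were left out. Peaks overlapping by at least 1 bp were merged into regions. A gene end is within 1 kb of either annotated end. Whole-number pileups matching the fold, (pileup + 1)/(background + 1), and the Poisson p within 0.001 in −log10 p were found for 100% of peaks per list. The most frequent background, a measure of depth, was 8.36 in cKO KCl, 9.47 in cKO basal, 8.23 in WT KCl and 9.30 in WT basal. Intervals are Clopper-Pearson at 95% (Python 3.11.15, scipy 1.17.1). Counting was tested on simulated data. The members, the gene lists, and the alternatives were chosen with earlier results of these data known. The CpG rule was added after the data were seen. Named genes are those with a gene-end peak, a difference of 3 or more regions in a comparison, or no region. Values of 1 member are not reported here, and it stays in the counts over all 47 genes.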

Additional observations from a re-analysis of the deposited data

Results flagged for a closer look

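The difference between conditions had opposite signs in 2 settings for the sum of regions and for 20 genes. These contrasts of single lists were not tested, and list length moved with them. The share of all genes with opposite signs was not counted, so the 20 cannot be read as a trait of these genes.

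Over all regions near the lineage genes, KCl minus basal was 13 in cKO neurons and -82 in WT neurons, and cKO minus WT was 14 with KCl and -81 at basal, a difference of 95 regions either way. At equal list length the opposite signs were gone, with 61 regions in cKO KCl, 69 in cKO basal, 69 in WT KCl and 70 in WT basal. Equal length evens the lists over all regions by design, so it cannot tell list length from a genome-wide change. In the region counts within 50 kb, the same difference of differences, cKO minus WT for the KCl change, was 9 for Tbx10, 7 for Pax2 and for Pax5, and 6 for Tbx5 and for Tbx21. It was 5 for Tbx15 and Gata3, and 4 for Nkx3-2, Nkx6-3, Pax9, Irx6 and Gata4. It was 3 for Nkx1-1, Nkx2-1, Nkx2-5 and Tbx19, and 2 for Tbx6 and Gata6. Tbx2 and Gata5 had -2, with fewer regions after KCl in cKO neurons (-1 each) and more in WT neurons (1 each).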

How the results depend on the processing

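Equal list length, which evens the lists over all regions by design, changed the comparisons. At 20229 peaks per list the share of unmatched regions in the first-named list was 49.5% for cKO basal against WT basal, 45.7% for cKO KCl against WT KCl, 49.5% for WT KCl against WT basal and 45.8% for cKO KCl against cKO basal. The other 24 shares, with windows of 10 and 100 kb, −log10 q of at least 3, a reciprocal overlap rule, no ends of other genes or 1 gene per cluster of neighbours, stayed inside the main interval. Regions in all 4 lists were 5 at 10 kb and 42 at 100 kb. Gene-end peaks were found for 6 genes in cKO KCl and 8 in WT basal at equal length, and 7 in cKO KCl with −log10 q of at least 3. The count was 5 in WT KCl within 500 bp and 11 in cKO basal within 2 kb. With transcript starts alone, known for 33 genes, the counts were 12 in cKO KCl, 3 in cKO basal, 5 in WT KCl and 8 in WT basal, so cKO KCl then had the most. Genes with fewer regions numbered 13 in cKO basal and those with more 14, against WT basal, at equal length, and 18 and 19 in WT KCl against WT basal. For cKO KCl the balance of genes with more against fewer turned at equal length, to 15 and 18 against WT KCl and to 13 and 21 against cKO basal. With −log10 q of at least 3, 2 genes had more in cKO basal than in WT basal. Counts that stayed within 1.5 times the main value numbered 14 for genes with fewer regions, 13 for genes with more and 12 for gene ends. Among them were the cKO KCl counts that turned at equal length and the cKO KCl count at transcript starts. All 12 values of CpG-rich windows with a peak, under alternatives chosen after seeing the data (55% G+C with 0.65 CpG, 1 window per gene, equal length), stayed inside the main interval. Differences of 3 or more regions at single genes were less stable. With the other windows, the stricter q and equal length, 74 values stayed within 1 region, 84 moved further and 2 reversed. The 2 were at equal length, with Tbx5 1 region higher in cKO basal and Gata1 1 higher in WT KCl, each than in WT basal. Tbx15 kept 1 region more in cKO KCl than in WT KCl with −log10 q of at least 3 and at equal length. Tbx10 kept 1 more at 10 kb and 2 more at equal length. No paired analysis was possible because each condition has 1 list. Leaving out replicates was not possible for the same reason. Depth limits the lists to sites with 20 or more fragments at the summit.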
